A study of Mus musculus with 6 samples.

Results

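Metallothioneins are small cysteine-rich proteins that bind zinc and copper, and the 7 genes described here are 3 metallothionein genes (*Mt1*, *Mt2* and *Mt3*), the zinc sensor *Mtf1* and 3 metal transporter genes (*Slc30a1*, *Slc39a8* and *Slc39a14*). They were taken by gene symbol from the 32350 entries of a table of gene expression in mouse calvaria, the bones of the cranial vault. Of the 7 genes, 6 have an entry of their own. *Mtf1* is held only in an entry merged with its neighbour *Yrdc*, so its value is that of both genes together. The calvaria came from 3 homozygous mutant pups (*Tmem53*-/-, mutant) and 3 heterozygous pups (*Tmem53*+/-, heterozygous) of the B6N strain at postnatal day 3, with 1 library of rRNA-depleted RNA per pup. *Tmem53* encodes a nuclear envelope protein, and its mutant alleles were frame shifts made by CRISPR/Cas9 in fertilized eggs. The labels do not name the frame-shift line, and the paper says that the line *Tmem53* 1bin/1bin was the one examined in detail. The paper describes the heterozygous pups as littermates of the mutants, without saying which pups share a litter, and every pup carries at least 1 mutant allele, so no wild-type level is part of these data. The genes were picked with the difference between these same libraries known, so their differences between the genotypes are described and not tested.

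The zinc sensor MTF1 is a transcription factor that enters the nucleus when free zinc rises and binds metal response elements (MREs) in the promoters of *Mt1*, *Mt2* and *Slc30a1*. The ZnT1 protein, encoded by *Slc30a1*, exports zinc over the plasma membrane, while ZIP8 and ZIP14, encoded by *Slc39a8* and *Slc39a14*, carry zinc, manganese and iron into cells. *Mt1* and *Mt2* are expressed in most tissues and are also induced by glucocorticoids and inflammatory cytokines, whereas *Mt3* is best known as a metallothionein of the brain. In bone, zinc is a cofactor of alkaline phosphatase and of matrix metalloproteinases.

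The metallothionein genes lie side by side on chromosome 8, in the order *Mt4*, *Mt3*, *Mt2* and *Mt1*, within 43125 bp (start 96661103, end 96704227) in the coordinates of the deposited table, which are those of NCBI build 37. *Mt1* spans 1240 bp and *Mt2* 951 bp, with 5520 bp between them, and *Mt3* spans 1543 bp and lies 18468 bp before *Mt2*. *Mt4*, known from stratified epithelia, was listed at 0 in all 6 libraries. The other members lie apart, with *Slc30a1* on chromosome 1 from 193717950 to 193737126, *Slc39a8* on chromosome 3 from 135488454 to 135551536, the *Mtf1* entry on chromosome 4 from 124479792 to 124539415 and *Slc39a14* on chromosome 14 from 70703124 to 70751259.

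RefSeq promoter windows of GRCm38.p6, a later build than that of the table, were matched by symbol for 6 of the 7 genes. The 250 bases before the annotated start are shown for the 3 metallothionein genes and for *Slc30a1*, because MREs are known to act at *Mt1*, *Mt2* and *Slc30a1*, and because *Mt3*, their neighbour in the cluster, had the widest difference in level. The letters searched were the core of the MRE, TGCACNC or TGCGCNC on either strand, and overlapping matches would be counted apart. Matches stand in capitals, and each sequence runs 5′ to 3′ on the strand of the gene.

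Mt1, chr8:94178839-94179088, plus strand: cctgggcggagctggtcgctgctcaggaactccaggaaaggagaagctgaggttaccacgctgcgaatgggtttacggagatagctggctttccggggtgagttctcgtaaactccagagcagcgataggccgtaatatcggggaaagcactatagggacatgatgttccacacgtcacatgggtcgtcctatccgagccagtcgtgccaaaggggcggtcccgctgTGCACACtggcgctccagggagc
Mt2, chr8:94172368-94172617, plus strand: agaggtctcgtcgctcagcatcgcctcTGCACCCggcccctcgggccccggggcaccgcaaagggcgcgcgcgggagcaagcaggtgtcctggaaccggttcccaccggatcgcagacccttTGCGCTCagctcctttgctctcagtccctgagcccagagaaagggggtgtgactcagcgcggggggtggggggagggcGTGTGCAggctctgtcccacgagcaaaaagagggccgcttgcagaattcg
Mt3, chr8:94152357-94152606, plus strand: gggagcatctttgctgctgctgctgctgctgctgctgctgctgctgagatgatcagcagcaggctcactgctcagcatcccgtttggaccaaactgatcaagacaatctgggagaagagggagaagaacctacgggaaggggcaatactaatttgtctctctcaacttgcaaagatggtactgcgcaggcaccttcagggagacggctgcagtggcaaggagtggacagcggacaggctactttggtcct
Slc30a1, chr1:191906531-191906780, plus strand: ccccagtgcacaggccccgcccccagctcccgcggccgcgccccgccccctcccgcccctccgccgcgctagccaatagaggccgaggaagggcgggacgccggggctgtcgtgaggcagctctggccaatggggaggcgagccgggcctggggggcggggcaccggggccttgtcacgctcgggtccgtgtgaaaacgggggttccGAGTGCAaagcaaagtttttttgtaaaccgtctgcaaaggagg

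The *Mt2* stretch held 3 matches, those of *Mt1* and *Slc30a1* held 1 each and that of *Mt3* held 0. With the 50 bases after the start included, the windows of 300 bases held 4 matches for *Mt2*, 3 for *Mt1*, 2 for *Slc30a1* and 1 for *Mt3*. Of all 32851 RefSeq windows of 300 bases, 25.7% held at least 1 match, 7.11% at least 2, 1.97% at least 3 and 0.517% at least 4. The *Mtf1* window held 0 matches, and of the windows of *Slc39a8*, which has 2 annotated starts, 1 held a match 19 bases before the start and the other held 0. Of the *Mt1* matches, 2 lay after the annotated start. The counts depend on where that start is placed, and matches outside the windows were not counted, so they do not give the number of MREs of a promoter. These are matches of letters and were not tested for binding.

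By the marker genes of sex, heterozygous replicates 1 and 3 were female, with *Xist* at 102 FPKM in each, and heterozygous replicate 2 and all 3 mutants were male, with *Ddx3y* at 27.3 to 36 FPKM. Sex and genotype are therefore partly aligned. *Tmem53* itself had 13.9, 10.9 and 10 FPKM across mutant replicates 1, 2 and 3, against 7.22, 6.38 and 7.16 FPKM in heterozygous replicates 1, 2 and 3. A frame shift need not lower its transcript, so this does not check the genotypes. FPKM are fragments scaled by transcript length and by the mapped total of the library, and they carry no read counts. Levels of different genes can be compared only roughly, since the fragment length model, which bears on short transcripts, was not given. Judged by the steps between the lowest values, sequencing depth varied between 0.867 and 1.2 times that of heterozygous replicate 1. Zeros of the table can be failed estimates, since the bone collagen gene *Col1a1* stood at 0 in mutant replicate 3 and heterozygous replicate 2 and at 2614 to 4090 FPKM in the others, and each library had 5 to 13 entries at 0 beside 20 FPKM or more in another of its genotype. Among markers of the cells a calvaria can hold, 4 of red blood cells, the globin genes *Hba-a1*, *Hba-a2* and *Hbb-b1* and *Slc4a1*, were listed at 0 in all 6 libraries. These zeros may be failed estimates too, and the other red blood cell markers with an entry reached at most 0.0855 FPKM. Of the 5 endothelial markers, 4 had means below 0.5 FPKM. In bulk tissue, fewer cells of a type and less RNA per cell cannot be told apart.

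*Mt3* showed the widest difference among the 7 genes. Its level was 1.46 and 0.136 FPKM in mutant replicates 1 and 2, and it was listed at 0 in mutant replicate 3. In heterozygous replicates 1, 2 and 3 it was 62, 11.8 and 57.2 FPKM. The groups did not overlap, and the lowest heterozygous library was 8.12 times the highest mutant library. On the scale of log2(FPKM + 0.5) the mutants were lower by a log2 fold change of -5.37 (SE 0.774), and -3.85 when sex was a covariate, a setting in which the mutants are in effect set against the only male heterozygous pup. That pup stood apart within its own genotype, since the mean of the female pups was 5.04 times its level. With an added 0.1 in place of 0.5 the log2 fold change was -6.71, as the added value sets the size of a difference that ends near 0.

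*Mt1* and *Mt2*, the abundant metallothioneins, were lower on average in the mutants, but their groups overlapped. *Mt1* was 85.6, 115 and 158 FPKM in mutant replicates 1, 2 and 3, against 305, 115 and 280 FPKM in heterozygous replicates 1, 2 and 3. Both female heterozygous pups lay above all mutants, while the male heterozygous pup lay among the mutants. *Mt1* averaged 119 ± 36.2 FPKM in mutant and 233 ± 103 FPKM in heterozygous calvaria (SD, n = 3 each), which is a log2 fold change of -0.88 (SE 0.415). *Mt1* ranked 429th by mean level among the 25117 named entries.

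*Mt2* was 40.1, 51.7 and 93.9 FPKM in mutant replicates 1, 2 and 3, against 174, 43.3 and 168 FPKM in heterozygous replicates 1, 2 and 3. Again the male heterozygous pup was within the range of the mutants and the female pups were above it. *Mt2* averaged 61.9 ± 28.3 FPKM in mutant and 129 ± 73.8 FPKM in heterozygous calvaria (SD, n = 3 each), which is a log2 fold change of -0.90 (SE 0.596). Heterozygous replicate 2 decided the size of both differences. Without it the log2 fold change was -1.33 for *Mt1* and -1.55 for *Mt2*, and with sex as a covariate it was 0.01 for *Mt1* and 0.42 for *Mt2*. Without heterozygous replicate 1 or 3 the value for *Mt2* was -0.56 and -0.58, and for *Mt1* it was -0.63 and -0.69. Sex and the other ways in which this library differs cannot be told apart with 1 male heterozygous pup.

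*Mt1* was the more abundant of the pair in every library, at 1.66 to 2.65 times the FPKM of *Mt2*. The ratio of *Mt1* to *Mt2* in FPKM was 2.13, 2.22 and 1.68 in mutant replicates 1, 2 and 3, against 1.75, 2.65 and 1.66 in heterozygous replicates 1, 2 and 3. Their sum was 126, 166 and 251 FPKM in the mutants, against 479, 158 and 448 FPKM in the heterozygous pups in the same order. The ratio thus varied less between libraries than the sum did, and its highest value was in the male heterozygous pup. All mutant ratios lay within the heterozygous range.

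**Figure D1:**
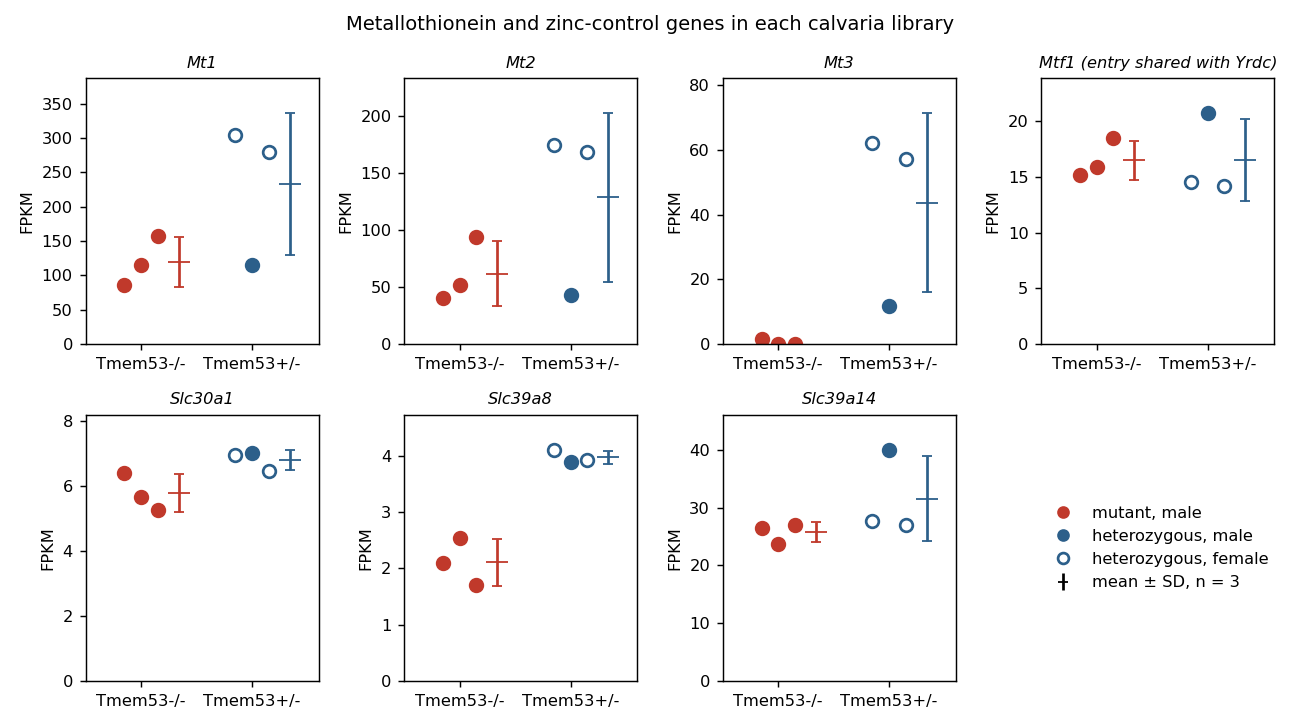
FPKM of the 7 genes in each library, with the 3 mutant pups (red) left of the 3 heterozygous pups (blue), open circles for females, and a bar for the mean and SD (n = 3), which is left out for mutant *Mt3* because 1 value is listed at 0. The mutant points of *Mt3* and *Slc39a8* lie below all heterozygous points, while the male heterozygous pup lies among the mutants for *Mt1* (115 FPKM) and *Mt2* (43.3 FPKM).

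The pattern over the 6 libraries was compared with that of 12547 other named entries with a mean of at least 1 FPKM, by the root mean square distance between profiles of log2(FPKM + 0.5) centred on their means. The neighbours are a description over 6 libraries that share their genotype and sex split. Nearest to *Mt1* were *Gas7* (0.0935), *Cd38* (0.123), *Gsr* (0.146), *Slc27a6* (0.152) and *Grem1* (0.154). *Gsr* encodes glutathione reductase, *Grem1* an antagonist of BMPs and *Cd38* an enzyme that consumes NAD. Nearest to *Mt2* were *Mt1* (0.245), *Meox1* (0.245), 1810011O10Rik (0.266), *Gas7* (0.289) and *Adh1* (0.332). *Mt2* was in turn the 23rd nearest to *Mt1*.

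*Mt3* was far from both, at a distance of 2.42 to *Mt1* and 2.43 to *Mt2*. Its nearest entries were *Tm7sf4* (0.617), *Nhedc2* (0.662), the merged entry of *Tm4sf19* (0.682), 4833422F24Rik (0.778) and *Oscar* (0.828), a search that was added after the values of *Mt3* had been seen. *Tm7sf4* encodes DC-STAMP, which osteoclast precursors need to fuse, *Oscar* encodes a receptor that costimulates osteoclast formation, and *Nhedc2* encodes a sodium-proton exchanger of osteoclasts. RefSeq lists 4833422F24Rik as a synonym of *Ocstamp*, a fusion gene of osteoclasts. *Tm7sf4* had 0.0247 and 0.0255 FPKM and was listed at 0, in that order, in mutant replicates 1, 2 and 3, against 32.3, 6.96 and 24.8 FPKM in heterozygous replicates 1, 2 and 3. *Mt3* and *Tm7sf4* thus shared the near absence in the mutants and the low value of the male pup among the heterozygotes.

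Markers of several other cell types differed between the genotypes, and those of osteoclasts were also low in the male heterozygous pup. Its sums of neutrophil and skeletal muscle markers were likewise the lowest among the heterozygous pups. Of 7 osteoclast markers, 4 were lower in the mutants by limma's test. Beside this and the other marker counts, 3.63% of all entries tested were called lower and 3.44% higher. The summed FPKM of the 7 osteoclast markers ran from 201 to 334 in the mutants and from 673 to 3859 in the heterozygous pups. The 673 was the male pup. *Ctsk*, which was not called, held most of the mutant sums, at 188 to 329 FPKM, and was 424 FPKM in the male pup. *Acp5* was 3.65 to 5.72 FPKM in the mutants and 135 FPKM in the male pup. *Mmp9* was 0.34 to 1.08 FPKM in the mutants and 87.1 FPKM in the male pup. Of 7 macrophage markers, 0 were called by limma and 1 had an unadjusted p under 0.05. *Cd68* is held in an entry merged with the translation factor gene *Eif4a1*, and the other 6 markers summed to 539, 838 and 82.8 FPKM in mutant replicates 1, 2 and 3, against 1139, 986 and 987 FPKM in heterozygous replicates 1, 2 and 3. The male heterozygous pup was level with a female one in this sum, most of which was *C1qa*, *C1qb* and *C1qc*. For these genes and *Emr1* it lay between the females. For *Csf1r* (68.7 FPKM) and *Mrc1* (43.6 FPKM) it lay below both females, and its *Mrc1* was within the mutant range. Mutant replicate 3 was far below the other mutants. The 6 cartilage markers, of which 4 were higher in the mutants, summed to 455 to 3817 FPKM in the mutants and 108 to 117 FPKM in the heterozygous pups. As *Mt3* is known from brain, markers of neurons and glia were read as whole lists. Of the 7 glial markers, 2 fell by limma's test, the astrocyte genes *Slc1a3*, at 21.4 ± 2.52 FPKM in mutant and 42.5 ± 4.39 FPKM in heterozygous calvaria, and *Aldh1l1*, at 3.46 ± 0.766 FPKM in mutant and 9.21 ± 3.12 FPKM in heterozygous calvaria (SD, n = 3 each). The glial markers *Gfap*, *Aqp4* and *Olig1* and the neuron markers *Snap25* and *Syt1* stayed at or below 0.155 FPKM in every library. The summed FPKM of all 7 glial markers was 26.1 to 33.6 in the mutants and 48.5 to 65.2 in the heterozygous pups, and that of the 5 measured neuron markers was 25.5 to 30.8 in the mutants and 19.6 to 28.7 in the heterozygous pups. The part of these cells in the levels of the metallothionein genes was not tested.

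**Figure D2:**
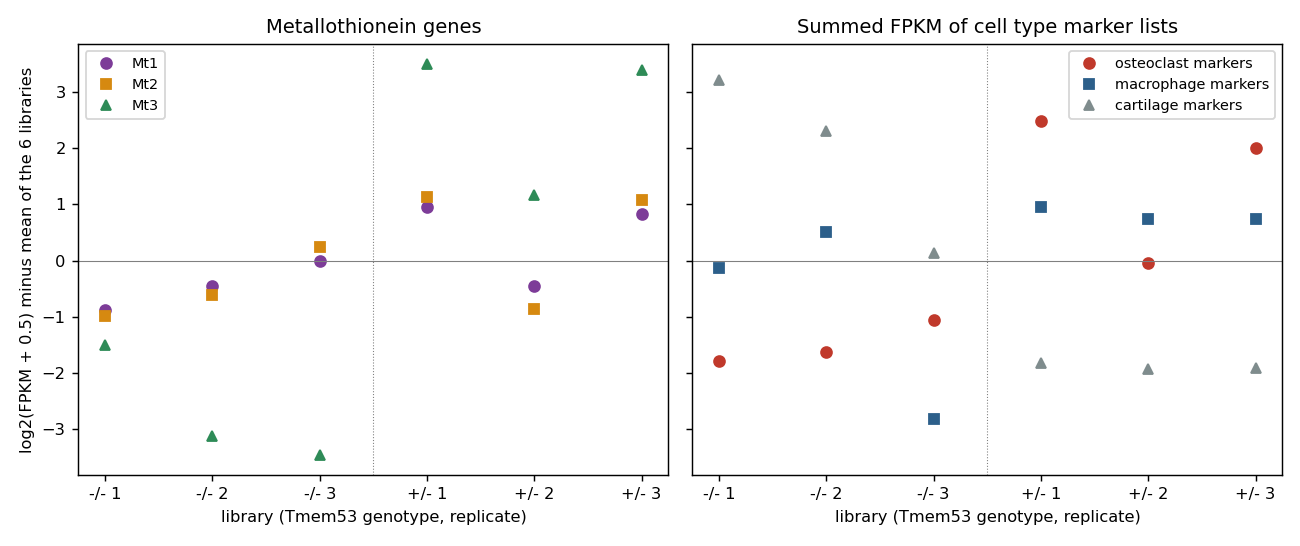
Level in each library relative to the mean of the 6 libraries, as log2(FPKM + 0.5), for *Mt1*, *Mt2* and *Mt3* (left) and for the summed FPKM of osteoclast, macrophage (without the merged *Cd68* entry) and cartilage markers (right), with mutant libraries left of heterozygous ones. Heterozygous replicate 2 lies below heterozygous replicates 1 and 3 for all 3 metallothionein genes and for the osteoclast sum, which was 673 FPKM in that library. Most of the osteoclast sum in the mutants is *Ctsk*.

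The mean level of the *Mtf1* entry hardly differed between the genotypes. It was 15.1, 15.9 and 18.4 FPKM in mutant replicates 1, 2 and 3, against 14.6, 20.7 and 14.2 FPKM in heterozygous replicates 1, 2 and 3. The mutants lay within the heterozygous range, with means of 16.5 ± 1.73 FPKM in mutant and 16.5 ± 3.66 FPKM in heterozygous calvaria (SD, n = 3 each). The log2 fold change was 0.02 (SE 0.167), and its sign turned with the scaling of the libraries (-0.03), with sex as a covariate (-0.32) and without heterozygous replicate 1 (-0.06), heterozygous replicate 3 (-0.08) or mutant replicate 3 (-0.06). Without heterozygous replicate 2 the log2 fold change was 0.19, and all mutants lay above both female pups. *Yrdc*, which encodes an enzyme of tRNA modification, shares the entry.

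*Slc30a1*, the zinc exporter that MTF1 induces, was slightly lower in the mutants. It was 6.39, 5.65 and 5.24 FPKM in mutant replicates 1, 2 and 3, against 6.95, 7 and 6.44 FPKM in heterozygous replicates 1, 2 and 3. The groups did not overlap by a narrow margin, since the lowest heterozygous library was 1.01 times the highest mutant library. The means were 5.76 ± 0.582 FPKM in mutant and 6.8 ± 0.306 FPKM in heterozygous calvaria (SD, n = 3 each), which is a log2 fold change of -0.22 (SE 0.106). Unlike *Mt1* and *Mt2*, *Slc30a1* had no low value in the male heterozygous pup, which was at 1.05 times the mean of the females.

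*Slc39a8*, the importer ZIP8, was lower in every mutant. It was 2.09, 2.53 and 1.7 FPKM in mutant replicates 1, 2 and 3, against 4.11, 3.89 and 3.93 FPKM in heterozygous replicates 1, 2 and 3. All 3 heterozygous pups lay close together, the male one included, and the lowest of them was 1.53 times the highest mutant. *Slc39a8* averaged 2.11 ± 0.414 FPKM in mutant and 3.97 ± 0.116 FPKM in heterozygous calvaria (SD, n = 3 each), which is a log2 fold change of -0.79 (SE 0.144). This value ranged from -0.90 to -0.66 over 18 processing alternatives, sex as a covariate included (-0.76).

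*Slc39a14*, the importer ZIP14, was 26.5, 23.8 and 27 FPKM in mutant replicates 1, 2 and 3, against 27.6, 40 and 27 FPKM in heterozygous replicates 1, 2 and 3. The mutants and the female heterozygous pups lay together, and the male heterozygous pup was above them. The means were 25.8 ± 1.74 FPKM in mutant and 31.5 ± 7.34 FPKM in heterozygous calvaria (SD, n = 3 each), which is a log2 fold change of -0.27 (SE 0.166). It was -0.08 without heterozygous replicate 2 and -0.63 with sex as a covariate. *Slc39a14* was the more abundant importer of the pair, at several times the FPKM of *Slc39a8* in every library.

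By limma on all 13535 entries tested, *Mt3* and *Slc39a8*, 2 of the 7 genes, would pass an adjusted p of 0.05, beside 7.06% of all entries tested. For *Mt3*, *Slc39a8* and *Slc30a1*, 3 of the 7, all mutant libraries lay below all heterozygous libraries, beside 16.0% of all entries, and 37.2% of all entries did not overlap in either direction. As the genes were picked from this comparison, nothing is read from these counts. In heterozygous calvaria the order of the mean FPKM was *Mt1*, *Mt2*, *Mt3*, *Slc39a14*, *Mtf1*, *Slc30a1* and *Slc39a8*, where the neighbours *Mt1* and *Mt2*, *Mt2* and *Mt3*, and *Mt3* and *Slc39a14* had overlapping values. In mutant calvaria *Mt3* came last and the other 6 kept their order, with overlapping values only between *Mt1* and *Mt2*.

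Among the other zinc transporters, a single gene passed the test. Of the 21 ZnT and ZIP genes other than the members, 14 had a mean of at least 0.5 FPKM and were tested, and of these 1 fell and 13 were not called (at an unadjusted p under 0.05 there were 2, beside 27.9% of all entries), and 3.63% of all entries were called lower and 3.44% higher. Their median log2 fold change was 0.04, beside 0.05 over all entries tested. The gene that fell was *Slc39a4*, the importer ZIP4 that takes up dietary zinc in the intestine. It was 0.151, 0.269 and 0.0732 FPKM in mutant replicates 1, 2 and 3, against 0.756, 0.872 and 1.3 FPKM in heterozygous replicates 1, 2 and 3, with groups that did not overlap. Its log2 fold change was -1.14 (SE 0.215, with an adjusted p of 0.0349 in limma), which the added 0.5 FPKM shrinks at such low levels. The call was lost on leaving out any library other than heterozygous replicate 2 and with sex as a covariate (adjusted p 0.00574 to 0.127 over 17 alternatives in limma).

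*Slc39a13*, the importer ZIP13 whose loss in humans causes a connective tissue disorder with skeletal defects, was 43.4 ± 0.7 FPKM in mutant and 42.4 ± 2.84 FPKM in heterozygous calvaria (SD, n = 3 each), which is a log2 fold change of 0.03 (interval at 95% confidence -0.17 to 0.24, adjusted p of 0.832 in limma). *Slc30a5* and *Slc30a7* encode exporters that load zinc into the secretory pathway, where alkaline phosphatase receives it. *Slc30a5* was 25 ± 0.978 FPKM in mutant and 25.3 ± 2.22 FPKM in heterozygous calvaria, a log2 fold change of -0.01 (-0.24 to 0.21). *Slc30a7* was 20.9 ± 1.26 and 18.8 ± 1.6 FPKM in mutant and heterozygous calvaria, a log2 fold change of 0.14 (-0.09 to 0.38). *Slc30a9*, second to *Slc30a5* among the tested exporters by the mean over all 6 libraries, though below *Slc30a4* in the mutants, had a log2 fold change of 0.05 (-0.23 to 0.33). None of these 4 genes was called, and the intervals leave room for differences of up to 0.38 on the log2 scale. *Slc30a4* had the highest value among the exporters, 0.61 (0.02 to 1.19, adjusted p of 0.168 in limma), and was named after its value was seen.

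**Figure D3:**
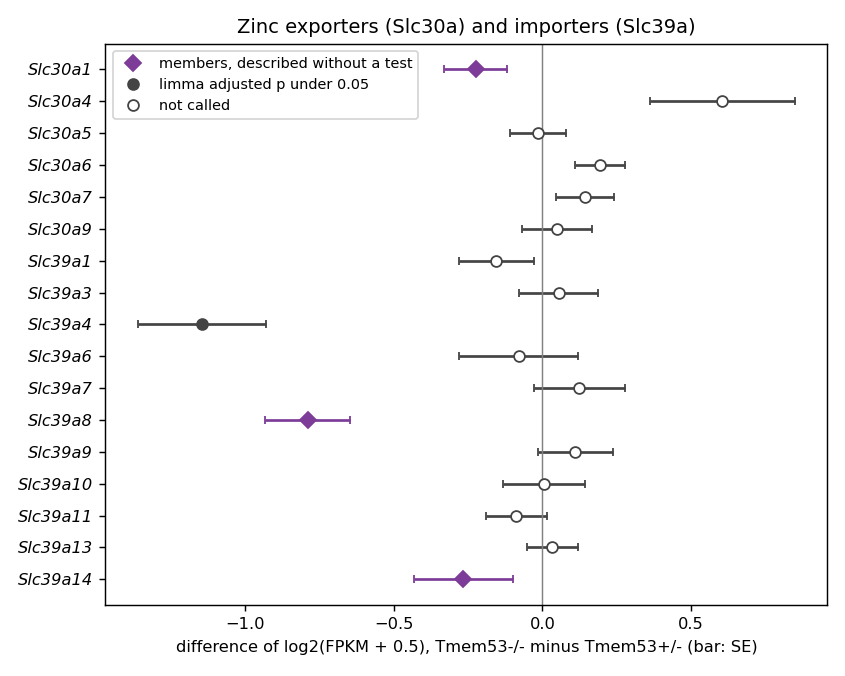
Difference of log2(FPKM + 0.5), mutant minus heterozygous, for each tested zinc exporter (*Slc30a*) and importer (*Slc39a*), with the SE as a bar, diamonds for the 3 members and a filled circle for the gene called by limma. *Slc39a4* (-1.14) and *Slc39a8* (-0.79) lie farthest below 0, and most others lie within 0.2 of it.

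Genes that respond to the same signals as *Mt1* and *Mt2* were taken as lists. Over 68 tested entries of these lists, 9 fell and 59 were not called (at an unadjusted p under 0.05 there were 32, beside 27.9% of all entries), and 3.63% of all entries were called lower and 3.44% higher. The median log2 fold change of the 68 was -0.20, beside 0.05 over all entries. Of 14 oxidative stress genes under the transcription factor NRF2, 4 fell and 10 were not called, with a median of -0.61. They were *Gclm* and *Gclc*, the subunits of the enzyme that makes the glutathione precursor, *Srxn1*, which encodes sulfiredoxin, and *Txnrd1*, which encodes a thioredoxin reductase. *Gclm* was 43.8, 49.1 and 34.9 FPKM in mutant replicates 1, 2 and 3, against 87.7, 93.1 and 78.9 FPKM in heterozygous replicates 1, 2 and 3, and its groups did not overlap. Its log2 fold change was -1.03 (SE 0.146, with an adjusted p of 0.0219 in limma). *Gclc* fell by 0.64 (adjusted p of 0.0255 in limma), *Srxn1* by 0.78 (0.0269) and *Txnrd1* by 0.56 (0.0275), on the log2 scale. The male heterozygous pup was on the side of the females for *Gclm*, *Gclc* and *Txnrd1*. For *Srxn1* it was 50.9 FPKM, above all mutants (30.6 to 37.7 FPKM) and below the females (60.1 and 64.5 FPKM). All mutants lay below all heterozygous pups for 8 of the 14 genes, beside 16.0% of all entries. Neither *Gsr* nor *Slc7a11* was called, and for both the male pup (16 and 2.96 FPKM) was within the mutant range and below the females. *Hmox1*, *Nqo1* and the gene of NRF2 itself, *Nfe2l2*, were not called. The calls of *Gclc*, *Srxn1* and *Txnrd1* were lost on leaving out heterozygous replicate 1 or 3 or mutant replicate 1 or 2, and that of *Gclm* on leaving out heterozygous replicate 1 or 3 or mutant replicate 1. With sex as a covariate, the call of *Srxn1* was also lost (log2 fold change -0.59), while those of *Gclm*, *Gclc* and *Txnrd1* were not. Over 18 alternatives the adjusted p in limma was 0.00191 to 0.0964 for *Gclm*, 0.00215 to 0.11 for *Gclc*, 0.00125 to 0.113 for *Srxn1* and 0.00138 to 0.116 for *Txnrd1*.

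Of 14 tested genes of the acute-phase and interleukin-6 response, which also raises *Slc39a14* and the metallothioneins in liver, 4 fell and 10 were not called, with a median of -0.62. *Bcl3*, which encodes a partner of NF-kB in the nucleus, was 5.96, 6.45 and 6.8 FPKM in mutant replicates 1, 2 and 3, against 17.5, 16.5 and 15.3 FPKM in heterozygous replicates 1, 2 and 3. Its log2 fold change was -1.30 (SE 0.0968, with an adjusted p of 0.00592 in limma), and it was still called without any 1 library. *Il6*, the cytokine gene, was 0.126, 0.455 and 0.753 FPKM in the mutants, against 3.44, 2.99 and 3.79 FPKM in the heterozygous pups, a log2 fold change of -2.10 (SE 0.267, with an adjusted p of 0.0168 in limma). *Cebpd*, which encodes a transcription factor of the acute phase, fell by 0.76 (adjusted p of 0.0209 in limma), and *Socs3*, which encodes a feedback inhibitor of the pathway, fell by 0.54 (0.04). The call of *Il6* was lost on leaving out heterozygous replicate 1 or 3 or mutant replicate 2, that of *Cebpd* on leaving out heterozygous replicate 1 or 3 or mutant replicate 1 or 2, and that of *Socs3* on leaving out any library other than heterozygous replicate 2, with sex as a covariate (log2 fold change -0.37) and with no filter on the mean. Over 18 alternatives the adjusted p in limma was 0.000781 to 0.0905 for *Il6*, 0.00124 to 0.102 for *Cebpd*, 0.00112 to 0.145 for *Socs3* and 0.000319 to 0.0582 for *Bcl3*. All mutants lay below all heterozygous pups for 8 of the 14 genes and above them for 1, beside 16.0% and 21.2% of all entries. The 1 was *Lcn2*, at 28.2, 24.2 and 4.43 FPKM in the mutants, against 2.35, 0.709 and 4.16 FPKM in the heterozygous pups. It was not called (log2 fold change 2.59, adjusted p of 0.095 in limma). *Il6st* was listed at 0 in heterozygous replicate 1 only, at 74.8 to 110 FPKM in the others, so its difference is not read.

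The glucocorticoid list gave no common direction. Of 13 tested genes, 2 fell and 11 were not called, with a median of -0.01. The genes that fell were *Cebpd*, also on the acute-phase list, and *Nfkbia*, which encodes an inhibitor of NF-kB. *Nfkbia* was 15, 16.4 and 9.95 FPKM in mutant replicates 1, 2 and 3, against 59.2, 29.1 and 48.2 FPKM in heterozygous replicates 1, 2 and 3, a log2 fold change of -1.66 (SE 0.3, with an adjusted p of 0.0323 in limma). Leaving out any 1 library but heterozygous replicate 2 ended this call, as did sex as a covariate (log2 fold change -1.08, adjusted p 0.0795) and no filter on the mean (adjusted p 0.0503; adjusted p 0.000995 to 0.123 over 18 alternatives in limma). *Fkbp5* and *Per1*, common readouts of the glucocorticoid receptor, had log2 fold changes of -0.30 and -0.01 and were not called. An unadjusted p under 0.05 in limma was held by 9 of the 13 genes, beside 27.9% of all entries. All mutants lay below all heterozygous pups for 6 of the 13 genes, *Fkbp5* included, beside 16.0% of all entries. They lay above all heterozygous pups for 4, beside 21.2% of all entries. The 4 were *Tsc22d3* (log2 fold change 0.404), *Klf9* (0.542), *Hsd11b1* (1.36) and the gene of the receptor itself, *Nr3c1* (0.416). None of these 4 was called.

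Of 5 other genes under MTF1 control, 1 fell and 4 were not called. The one that fell was *Gclc*, shared with the NRF2 list. *Slc39a10*, a zinc importer that MTF1 represses, was 12 ± 1.28 FPKM in mutant and 12 ± 1.74 FPKM in heterozygous calvaria (SD, n = 3 each), which is a log2 fold change of 0.01 (interval at 95% confidence -0.33 to 0.34). Of 15 tested genes of copper and iron handling, 0 were called by limma and 7 had an unadjusted p under 0.05, which 27.9% of all entries had, with a median of -0.26. The ferritin genes *Fth1* and *Ftl1*, the most abundant of them, had log2 fold changes of -0.67 (adjusted p of 0.175 in limma) and -0.86 (0.0946). Of 10 tested heat shock entries, 0 were called by limma and 0 had an unadjusted p under 0.05, with a median of -0.03. The most abundant, the merged entry of *Hspa8*, was 838 ± 113 FPKM in mutant and 822 ± 103 FPKM in heterozygous calvaria, and *Hspe1* had a log2 fold change of 0.28 (adjusted p of 0.184 in limma). Counts of called genes over all these lists rested on single libraries. On leaving out a single library, 1 gene was called in the absence of heterozygous replicate 1 or of heterozygous replicate 3, 2 in the absence of mutant replicate 1 or 2, and 21 in the absence of heterozygous replicate 2.

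**Figure D4:**
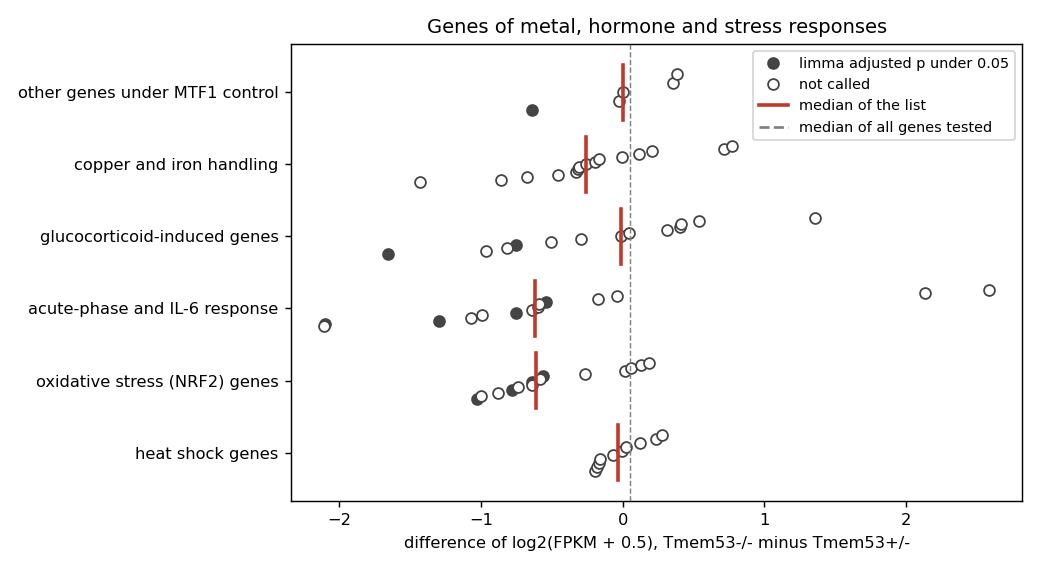
Difference of log2(FPKM + 0.5), mutant minus heterozygous, for each tested gene of 6 response lists, with filled circles for genes called by limma, a red line for the median of the list and a dashed line for the median of all entries tested (0.05). The medians of the NRF2 (-0.61) and acute-phase lists (-0.62) lie to the left of it, while the heat shock genes cluster around 0.

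The differences of the 7 genes were computed again under 18 alternatives of the processing. *Slc39a8*, *Slc30a1*, *Slc39a14* and *Mt3* were lower in the mutants under every one of them. *Mt1* and *Mt2* were lower under 17 of the 18, the exception being sex as a covariate. Without both heterozygous replicate 2 and mutant replicate 3, the libraries with *Col1a1* at 0, the log2 fold change was -1.55 for *Mt1*, -1.90 for *Mt2* and -5.75 for *Mt3*.

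**Figure D5:**
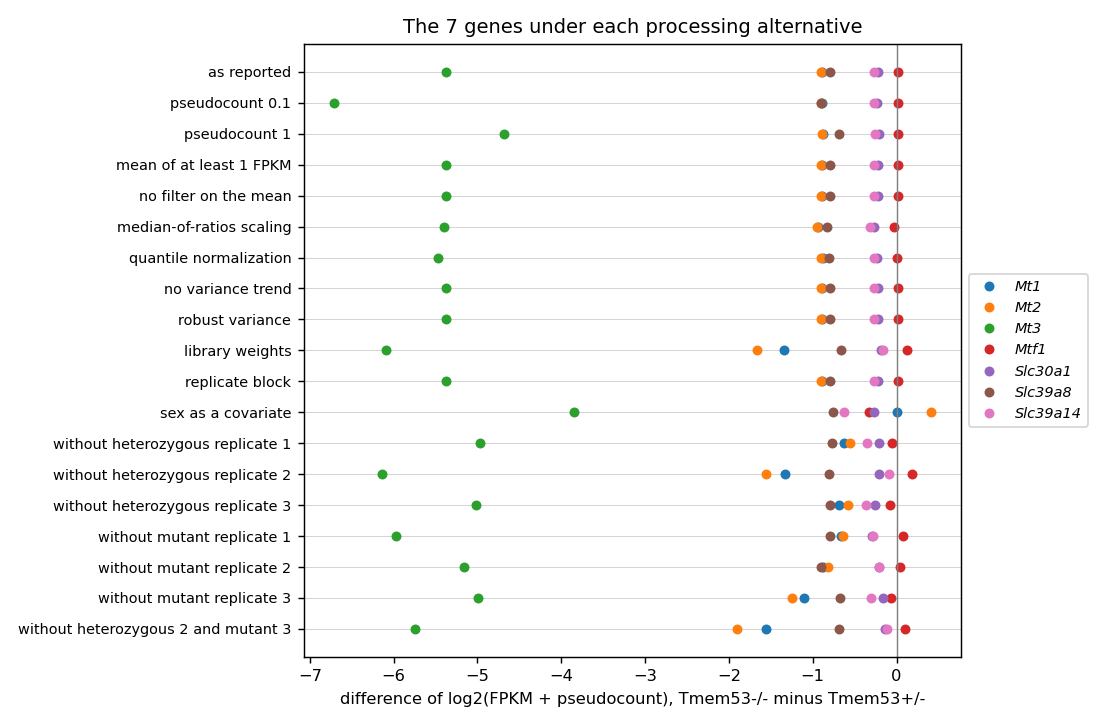
Difference of log2(FPKM + pseudocount), mutant minus heterozygous, of the 7 genes as reported (top row) and under each of 18 processing alternatives. *Mt3* ranges from -6.71 to -3.85, and *Mt1* and *Mt2* move to 0.01 and 0.42 with sex as a covariate while *Slc39a8* stays between -0.90 and -0.66.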

How the data were processed

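Calvaria of postnatal day 3 pups were put into RNAlater at dissection, frozen and crushed. Per the paper's methods, the authors depleted ribosomal RNA, prepared strand-specific libraries and read them from both ends. They aligned the reads with TopHat2 2.1.1 to NCBI build 37 and estimated FPKM per gene with Cufflinks 2.1.1 and Cuffdiff 2.1.1. The deposited table holds these FPKM, 1 column per pup. The normalization between libraries, the annotation and the fragment length model, which bears on transcripts as short as metallothionein mRNAs, were not given in the sources used here.

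FPKM were used as deposited. Entries with a symbol and a mean of at least 0.5 FPKM were compared as log2(FPKM + 0.5) with limma 3.58.1 (eBayes with trend, R 4.3.3, two-sided), adjusted by Benjamini-Hochberg over all 13535 entries and called at an adjusted p under 0.05. The procedure was tested on simulated data. Where a symbol had several entries, the one of the highest mean was used, and a gene without an entry of its own was read from a merged one. Groups were taken from the sample titles, and p-values measure the spread between pups. Alternatives were other pseudocounts, filters, scalings, variance models, library weights, a replicate block, sex as a covariate and leaving out libraries.

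The genes and lists were chosen with earlier results of these data known. Genes named from the lists were up to 3 called genes of lowest adjusted p per direction or, where none was called, the 2 of highest mean. *Mt4*, *Slc39a13*, *Slc30a5* and *Slc30a7* were always named. *Socs3*, *Txnrd1* and genes named as not called or by an extreme value were added after their values were seen. The lists cover zinc exporters and importers, other genes under MTF1 control, copper and iron handling, glucocorticoid-induced genes, the acute-phase and interleukin-6 response, oxidative stress genes, heat shock genes and markers of osteoblasts, osteoclasts, cartilage, macrophages, neutrophils, red blood cells, neurons, glia, skeletal muscle, epidermis and endothelium.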

Additional observations from a re-analysis of the deposited data

How the results depend on the processing

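The log2 fold change of *Mt1* turned to 0.0089 and that of *Mt2* to 0.42 with sex as a covariate, where *Mt3* was at -3.85, *Slc39a14* at -0.63 and *Mtf1* at -0.32. The sign of *Mtf1* also turned with median-of-ratios scaling (-0.0314) and without heterozygous replicate 1 (-0.06), heterozygous replicate 3 (-0.0787) or mutant replicate 3 (-0.0648). *Mt3* was at -6.71 with a pseudocount of 0.1. Leaving out 1 library gave -1.33 to -0.63 for *Mt1*, -1.55 to -0.56 for *Mt2*, -6.14 to -4.97 for *Mt3*, -0.08 to 0.19 for *Mtf1* and -0.36 to -0.08 for *Slc39a14*. Without both heterozygous 2 and mutant 3, *Mt1* was at -1.55 and *Mt2* at -1.90.

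Of all entries tested, 956 were called. This count was 621 with no filter on the mean, 4744 with library weights, 3675 without both heterozygous 2 and mutant 3, and 14 to 2216 without 1 library. For zinc transporters other than the members the count of 1 became 0 with a mean of at least 1 FPKM or sex as a covariate, 4 with library weights, 4 without both heterozygous 2 and mutant 3, and 0 to 1 without 1 library. For the response lists the count of 9 became 35 with library weights, 34 without both heterozygous 2 and mutant 3, and 1 to 21 without 1 library. The cause of these shifts was not tested, beyond that fewer libraries leave less for the test.

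With the replicate number as a block, 30 of all entries, 0 zinc transporters and 0 genes of the response lists were called. Same-numbered pups did not deviate together from their group means (r across genes 0.047, -0.23 and -0.138 for numbers 1, 2 and 3), so the numbers were not taken as pairs. Which pups share a litter was not given, and a litter was not a term in any fit. All 10 called genes of the lists kept their direction under all alternatives, and 1 of them, *Bcl3*, was called in every leave-out of 1 library. No read counts come with FPKM, so the counting error of the low *Mt3* and *Slc39a4* values in the mutants is unknown.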

Other observations

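Markers of skeletal muscle summed to 2.96 to 6.8 FPKM in mutant and 6.29 to 12.4 FPKM in heterozygous calvaria. Those of neutrophils summed to 0.797 to 4.54 FPKM in mutant and 2.51 to 11.9 FPKM in heterozygous calvaria. For both lists the lowest heterozygous sum was that of the male pup and lay within the mutant range. Markers of epidermis, where *Mt4* is known from, summed to 2.17 to 2.23 FPKM in mutant and 2 to 2.31 FPKM in heterozygous calvaria, of which *Krt10* held nearly all. Of 6 osteoblast markers, 5 rose in the mutants by limma's test, beside 3.44% of all entries called higher. *Col1a1* could not be read because of its zeros. The transferrin receptor gene *Tfrc*, which takes up iron, had 14.2, 12.7 and 8.5 FPKM across mutant replicates 1, 2 and 3, against 47.5, 19.7 and 34.8 FPKM in heterozygous replicates 1, 2 and 3, and it did not pass limma's test (log2 fold change -1.43, adjusted p = 0.0572). As for *Mt1*, *Mt2* and *Mt3*, its lowest heterozygous value was that of the male pup. *Tfrc* was named after its value was seen.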
